A study of Mus musculus with 6 samples.

Results

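Interferons are secreted proteins that reach a cell through paired receptor chains. IFN-β and the other type I interferons bind IFNAR1 and IFNAR2, which carry the kinases TYK2 and JAK1, while IFN-γ, the type II interferon, binds IFNGR1 and IFNGR2, which carry JAK1 and JAK2. The kinases then phosphorylate STAT proteins, which enter the nucleus and switch on interferon-stimulated genes. Macrophages and monocytes are well known both as a source of type I interferon and as the classical responders to IFN-γ, which is made mainly by NK cells and T cells.

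The 9 genes described here are the ligands Ifnb1 and Ifng, the receptor chains Ifnar1, Ifnar2, Ifngr1 and Ifngr2, and the kinases Jak1, Jak2 and Tyk2. All 9 are among the 21780 genes listed in the deposited table and among the 14429 that passed the filter on low counts. They were chosen by symbol with the difference between the groups already known, so their values are a description. For these 9 genes the thresholds of the fit over all genes serve only to sort them by size against spread, and are no test.

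The libraries were made from CD45+CD11b+ cells, that is myeloid cells, isolated by flow sorting from pancreata of C57BL/6 mice aged 6 to 8 weeks, 7 days after a single intraperitoneal injection. The control group of 3 libraries had received PBS and the other group of 3 libraries had received 1 mg of whole β-glucan particles (WGP), hollow yeast cell walls rich in β-glucan that phagocytes take up. The mice carried no engineered allele according to the labels, both sexes were used, and each sample was an independent animal according to the study, while the sex behind each library is not given in the sources used here. The comparison asks what the myeloid cells of the pancreas express once β-glucan has reached the organ. Because these are bulk samples, fewer cells of a type and less RNA per cell cannot be told apart.

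Levels are given as CPM (counts scaled to library size) after TMM scaling, and a fold change is that of WGP over PBS on the log2 scale with its standard error (SE). Total counts ranged from 35334645 to 40580936 in PBS and from 38240913 to 43341834 in WGP. Reads of Y-linked genes summed to 234 CPM and 248 CPM in PBS replicates 2 and 3 and to at most 0.0238 CPM in the other 4 libraries. By these reads PBS replicates 2 and 3 came from male mice and the other libraries did not, so sex and treatment were partly confounded. A fit with the presence of these reads as a covariate takes its fold change from PBS replicate 1 against the WGP libraries. Such a value therefore rests on 1 PBS library. Low counts clustered at multiples of many reads: the most frequent low count lay between 18 and 41.3 reads per gene, so reads are not independent molecules and low counts are less precise than they look. Ptprc (CD45) and Itgam (CD11b), the markers of the sort, were detected in every library, as were the myeloid genes Csf1r, Lyz2 and Adgre1. PBS replicate 1 stood apart in its markers of other cells, with 2414 CPM of B cell markers against 361 to 621 in the other PBS libraries and 5099 CPM of resident macrophage markers against 9519 and 12019. Values that moved most without it are therefore also given without it.

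Of the 9 genes, 4 were higher in WGP at an adjusted p of at most 0.05 (edgeR, Benjamini-Hochberg over all genes tested), as were 7.54% of all genes, and 1 was lower, as were 6.81%. With a fold of at least 1 on the log2 scale as well, which is what "called" means here, 2 were called higher (Ifngr2 and Jak2), against a background of 4.53%, and 1 was called lower (Ifnb1), against 4.96%. In 5 genes all 3 WGP libraries lay above all 3 PBS libraries, a pattern found in 16.0% of all genes, and in 1 gene they all lay below, as in 16.1%. The median log2 fold change was 0.55 over the 9 genes and -0.05 over all genes tested. Since the choice of genes used this contrast, nothing is read from these shares.

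**Figure D1:**
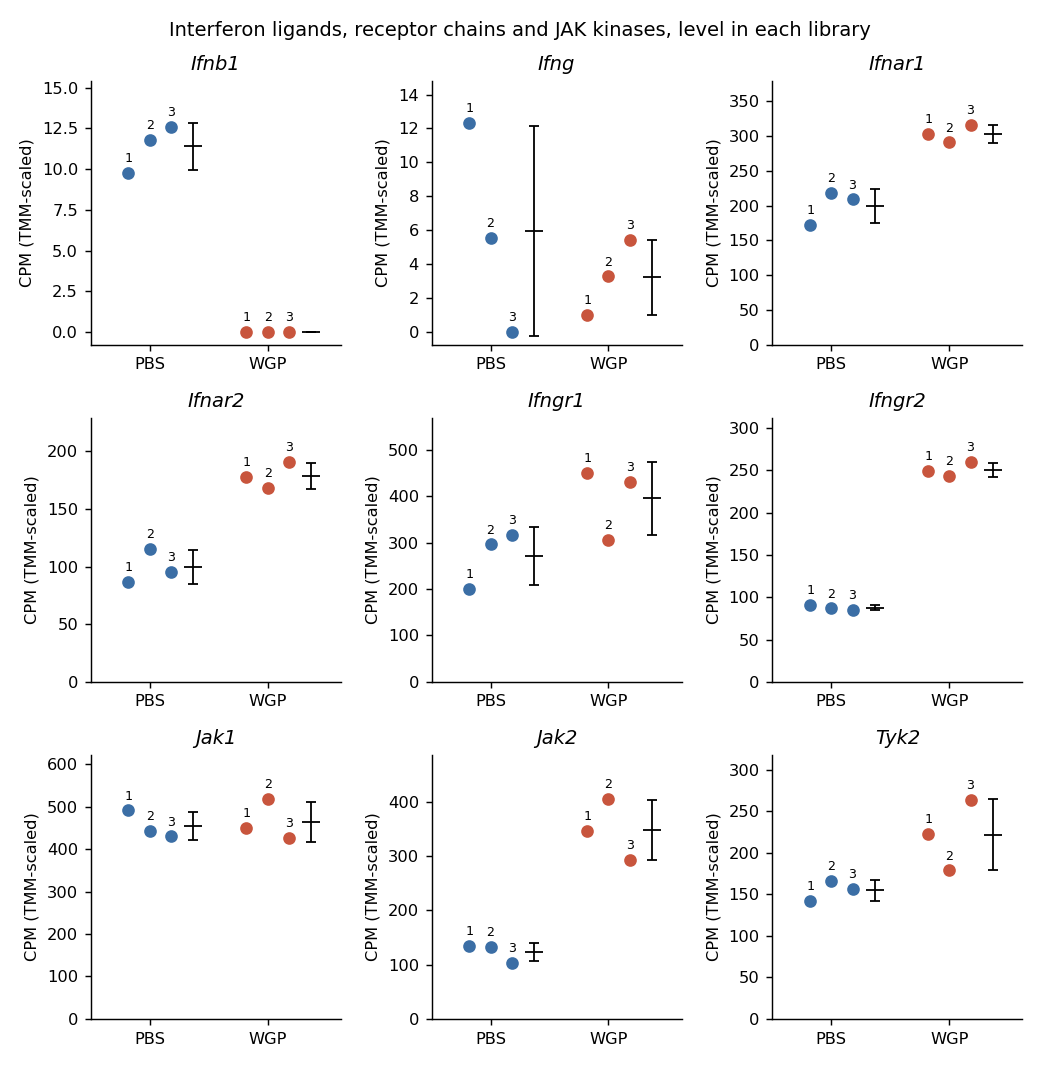
Level of each of the 9 genes in CPM (linear axis, one panel per gene with its own scale) in the 3 PBS libraries (blue) and the 3 WGP libraries (red). Points are numbered by replicate and the bar beside them is the mean with its SD. Ifnb1 was at 0 in every WGP library, the WGP libraries of Ifngr2 and Jak2 lay far above the PBS libraries, and the groups of Ifng, Ifngr1 and Jak1 overlapped.

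The stretches below were taken from the 250 bases before the RefSeq start of each gene (GRCm38.p6) and are shown because they hold a match to 1 of 3 motifs read by factors of these pathways. The motifs, searched on both strands, were a kB motif of NF-κB (GGGA and TTCC with any 2 bases between), a gamma-activated sequence of STAT dimers (GAS, TTC and GAA with any 3 bases between, which reads the same on both strands) and a pair of interferon regulatory factor repeats (GAAA and GAAA with any 2 bases between). All 9 genes had a promoter in the table, and 4 held a match, each shown in capitals with up to 40 bases on either side. The Ifnb1 stretch is chr4:88522861-88522950 on the minus strand and the match lies 116 to 107 bases before the start. The Ifngr2 stretch is chr16:91546944-91547033 on the plus strand, with the kB motif on the opposite strand, 75 to 66 bases before the start. Those of Ifnar2 (chr16:91372533-91372617, plus strand) and Ifng (chr10:118440796-118440845, plus strand) hold a GAS motif 214 to 206 and 249 to 241 bases before the start.
Ifnb1: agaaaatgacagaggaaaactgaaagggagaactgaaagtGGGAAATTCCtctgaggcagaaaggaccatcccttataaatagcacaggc
Ifngr2: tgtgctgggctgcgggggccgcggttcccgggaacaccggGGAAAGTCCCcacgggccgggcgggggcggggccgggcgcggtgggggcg
Ifnar2: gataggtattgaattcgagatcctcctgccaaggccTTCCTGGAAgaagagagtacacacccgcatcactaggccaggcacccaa
Ifng: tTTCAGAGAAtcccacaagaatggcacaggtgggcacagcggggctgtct

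Among all 32851 promoters of the table, 1.21% held the kB motif, 7.02% the GAS motif and 2.98% the regulatory factor pair. A match is a description of these letters. The 2 kB matches belong to Ifnb1, called lower, and Ifngr2, called higher, and the 2 GAS matches to Ifnar2 and to Ifng, whose groups overlapped. In Ifnar1, Ifngr1, Jak1, Jak2 and Tyk2 none of the 3 motifs was found in this window.

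Ifnb1 encodes IFN-β, the type I interferon that many cell types make first on sensing microbes, and was the ligand whose groups did not overlap. The gene (ENSMUSG00000048806) is a single exon at chr4:88522025-88522774 on the minus strand. It had 376, 460 and 515 counts in PBS replicates 1 to 3, or 9.78, 11.8 and 12.6 CPM, with a mean of 11.4 ± 1.45 (SD, n = 3). It had 0 counts in each of the 3 WGP libraries. The groups did not overlap, and the PBS libraries were close to each other.

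Against a floor of 3 counts over the WGP group, which is 0.0252 CPM, Ifnb1 was at least 453-fold lower in WGP. This bound covers counting error only, since the reads carry no molecular identifiers. In units of the most frequent low count the PBS reads came to 9.10, 15.0 and 18.9, or 43.1 in all. With the floor raised to 94.5 counts, which is 3 times the highest such unit among the WGP libraries, the bound was 14.4-fold. Ifnb1 was called lower in all 18 alternative fits that tested it, and requiring at least 10 counts in every library left it out.

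The other interferon ligands gave no reads. All 18 listed type I and type III genes, most of them Ifna genes, were at 0 counts in all 6 libraries. The Ifna genes are near-identical copies, and the counting may have set aside reads that they share, so their level is uncertain. Ifnb1 was therefore the type I interferon with counts in these cells, and it had them in the PBS libraries.

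Ifng (ENSMUSG00000055170, chr10:118441046-118445892, plus strand) encodes IFN-γ, the main activating cytokine of macrophages. It was at 12.3, 5.57 and 0 CPM in PBS replicates 1 to 3, from 474, 217 and 0 counts. The WGP libraries held 1.00, 3.28 and 5.42 CPM, from 37, 136 and 222 counts. The lowest and the highest values were both in PBS, and the groups overlapped across the whole WGP range.

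The mean of Ifng was 5.97 ± 6.17 CPM in PBS and 3.24 ± 2.21 CPM in WGP (SD, n = 3 each), a log2 fold change of -0.88 (SE 1.39). The difference was smaller than its SE. It turned to 0.21 without PBS replicate 1, stayed below 0 without any 1 of the other 5 libraries, and was 1.60 with limma-voom. In units of the most frequent low count no library held more than 11.5 units of Ifng. The libraries of a group differed widely, with a coefficient of variation of 103% in PBS and 68.3% in WGP.

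The level of markers of the cells that commonly make these ligands is given beside them. The summed level of 10 NK cell markers was 88.7 to 296 CPM in PBS and 103 to 130 CPM in WGP, highest in PBS replicate 1 and lowest in PBS replicate 3, the same order as Ifng within PBS and the opposite order within WGP. Of the 10, 1 (Klrk1) rose and 2 (Gzma and Gzmb) fell (edgeR, Benjamini-Hochberg), while 9 had a log2 fold change below 0, with a median of -1.36, or -0.62 without PBS replicate 1. The summed level of 10 T cell markers was 70.4 to 225 CPM in PBS and 36.6 to 69.2 CPM in WGP. Of the 10, 1 rose (Cd8a, at 0 in all PBS libraries and 1.49 to 2.94 CPM in WGP) and 1 fell (Cd2, by 2.86 on the log2 scale, and by 1.75 without PBS replicate 1), with 5 fold changes above and 5 below 0. Cd3e, the defining chain of the T cell receptor complex, was at 0 to 0.684 CPM in PBS and 1.33 to 8.27 CPM in WGP and did not pass.

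The CD11b gate of the sort should remove most plasmacytoid dendritic cells, T cells and B cells. The 8 markers of plasmacytoid dendritic cells, known for high type I interferon output, summed to 374 to 605 CPM in PBS and 102 to 135 CPM in WGP, and 3 of them (Siglech, Ly6d and Tcf4) fell. Of the 8, 6 had a log2 fold change below 0, while Ccr9 (0.25, or 2.11 without PBS replicate 1) and Runx2 (0.08) lay above 0. In PBS replicate 1, Ly6d and Tcf4 held 250 and 249 of the 605 CPM. Siglech, which defines these cells, was at 17.6, 38.0 and 28.9 CPM in PBS and 0.760, 3.16 and 1.34 CPM in WGP. The 7 markers of resident macrophages all fell, from a sum of 5099 to 12019 CPM in PBS to 1232 to 1997 CPM in WGP, and the 5 B cell markers all fell, from 361 to 2414 CPM to 86.8 to 169 CPM. The 7 acinar markers fell as well, from 1169 to 4476 CPM to 294 to 520 CPM. Without PBS replicate 1 the same 3 markers of plasmacytoid dendritic cells and all B cell, resident macrophage and acinar markers still fell, but the median log2 fold change of the B cell markers went from -2.78 to -1.63 and the log2 fold change of Ly6d from -3.11 to -1.66. The part of these cells in the values of Ifnb1 and Ifng was not tested.

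**Figure D2:**
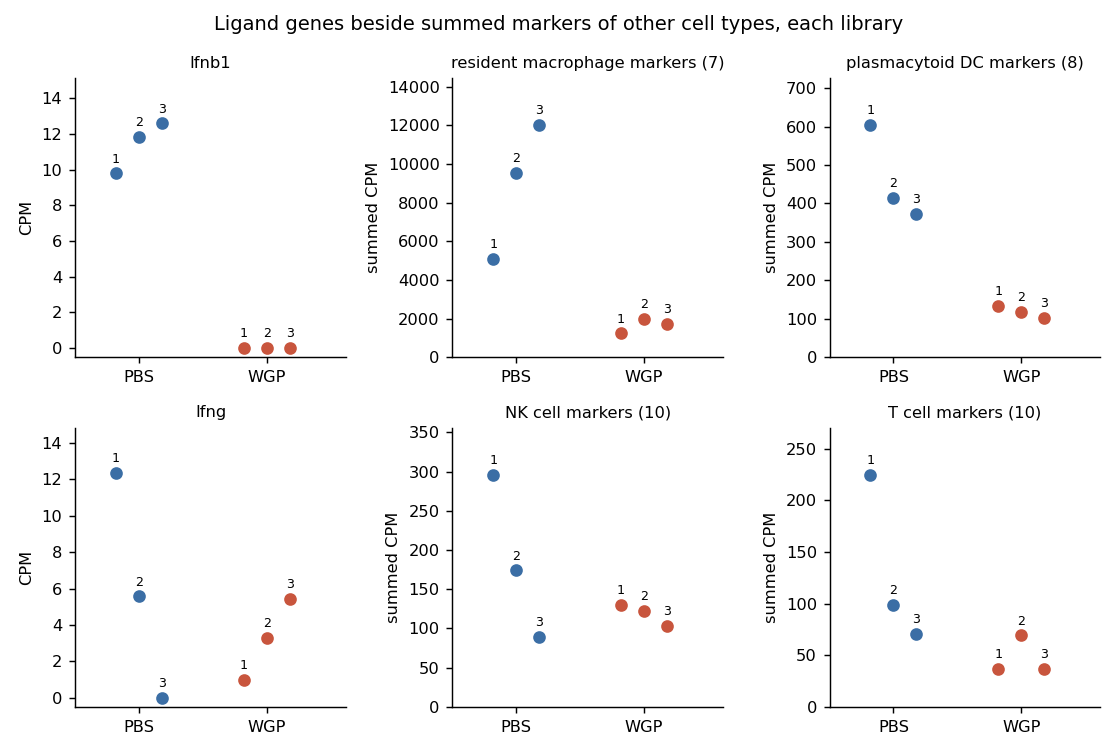
Levels in CPM of Ifnb1 and Ifng and summed levels in CPM of marker lists of other cell types, in each PBS library (blue) and WGP library (red), with one linear scale per panel. NK cell markers spanned 88.7 to 296 CPM in PBS and 103 to 130 CPM in WGP, and the sums for plasmacytoid dendritic cells and resident macrophages were lower in every WGP library than in any PBS library.

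The 3 genes most like Ifnb1 in pattern, by Pearson r of log2(CPM + 1) over the 6 libraries among 11672 genes compared, were St6gal1, Rubcn and Tec, each with r = 0.998. St6gal1, a sialyltransferase, was at 191 to 242 CPM in PBS and 50.7 to 53.2 CPM in WGP. With 2 separate groups such an r mainly measures the gap between them. For Ifng those nearest included Tarsl2 (r = 0.974) and U2af1l4 (r = 0.967). The 6 libraries are shared by all these genes, and such ranks are a description.

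The type I receptor chains were both higher in WGP with no overlap between the groups. Ifnar1 (ENSMUSG00000022967, chr16:91485238-91507441, plus strand), the chain that carries TYK2, was at 172, 219 and 209 CPM in PBS and 303, 291 and 316 CPM in WGP. Its lowest WGP library was 72.3 CPM above its highest PBS library. The mean went from 200 ± 24.6 to 303 ± 12.6 CPM (SD, n = 3 each), a log2 fold change of 0.60 (SE 0.15).

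Ifnar2 (ENSMUSG00000022971, chr16:91372783-91405589, plus strand), the chain with the higher affinity for ligand that carries JAK1, was at 87.0, 116 and 95.6 CPM in PBS and 178, 168 and 191 CPM in WGP. All WGP libraries were again above all PBS libraries, by 52.8 CPM at the nearest. Its log2 fold change was 0.85 (SE 0.15), from a mean of 99.4 ± 14.7 to 179 ± 11.2 CPM.

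Both chains passed the adjusted p and were below the fold needed for a call. Ifnar2 passed in all 19 alternatives, with log2 fold changes from 0.75 to 1.04, the highest with the Y-linked covariate. Ifnar1 passed in 17 of 19, with values from 0.50 to 0.82, and did not pass without WGP replicate 1 (0.60) or without WGP replicate 3 (0.57). Without PBS replicate 1 the values were 0.50 for Ifnar1 and 0.76 for Ifnar2.

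The chains of the IFN-γ receptor differed from each other in how far the groups lay apart. Ifngr1 (ENSMUSG00000020009, chr10:19591949-19610229, plus strand), the ligand-binding chain that carries JAK1, was at 200, 296 and 317 CPM in PBS and 450, 305 and 431 CPM in WGP. WGP replicate 2 lay within the PBS range, below PBS replicate 3, and PBS replicate 1 lay well below the other PBS libraries. The mean was 271 ± 62.3 CPM in PBS and 395 ± 78.5 CPM in WGP, with a log2 fold change of 0.55 (SE 0.21) that did not pass. It ranged from 0.37 without PBS replicate 1 to 0.98 with the presence of Y-linked reads as a covariate, where PBS replicate 1 was set alone against WGP.

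Ifngr2 (ENSMUSG00000022965, chr16:91547072-91565623, plus strand), the signalling chain that carries JAK2 and is known to limit the IFN-γ response in many cells, was at 91.4, 86.8 and 85.4 CPM in PBS and 249, 244 and 260 CPM in WGP. The libraries of each group were close to each other, with a coefficient of variation of 3.60% in PBS and 3.32% in WGP, and the groups were 152 CPM apart at the nearest. Its mean rose from 87.9 ± 3.16 to 251 ± 8.33 CPM, 2.85-fold or 1.51 on the log2 scale (SE 0.13). It was called in all 19 alternatives, from 1.41 to 1.54.

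Ifnar2, Ifnar1 and Ifngr2 lie in this order on chromosome 16, in a cluster of cytokine receptor genes that also holds Il10rb, the chain shared by the receptors of IL-10 and type III interferon. Il10rb was at 108, 153 and 153 CPM in PBS and 131, 129 and 135 CPM in WGP. Its groups overlapped, with a log2 fold change of -0.07 (SE 0.16). It turned to 0.02 without PBS replicate 2 or PBS replicate 3 and to 0.28 with the Y-linked covariate.

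Of the kinases, Jak2 was called higher, Jak1 had overlapping groups, and Tyk2 lay between. Jak2 (ENSMUSG00000024789, chr19:29251828-29313080, plus strand), which also serves the receptors of GM-CSF, IL-3 and erythropoietin, was at 134, 132 and 104 CPM in PBS and 346, 405 and 294 CPM in WGP. Its groups were 159 CPM apart at the nearest libraries. The mean rose from 124 ± 17.1 to 348 ± 55.6 CPM, 2.82-fold or 1.50 on the log2 scale (SE 0.17), and all 19 alternatives called it, from 1.37 to 1.60.

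Jak1 (ENSMUSG00000028530, chr4:101152367-101265282, minus strand), the kinase used by both receptors, was at 491, 442 and 430 CPM in PBS and 451, 518 and 426 CPM in WGP. The highest and the lowest library were both in WGP. Its log2 fold change was 0.03 (SE 0.14), from 454 ± 32.4 to 465 ± 47.2 CPM, and its sign changed under 4 alternatives with no value beyond -0.08.

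Tyk2 (ENSMUSG00000032175, chr9:21104068-21131243, minus strand), the kinase of IFNAR1 and of the IL-12 receptor, was at 142, 166 and 156 CPM in PBS and 223, 179 and 264 CPM in WGP. The WGP libraries were all above the PBS libraries, WGP replicate 2 by 12.7 CPM only. The log2 fold change was 0.52 (SE 0.17), from 155 ± 12.2 to 222 ± 42.6 CPM, and did not pass. It passed with DESeq2 (0.51) and without WGP replicate 2 (0.66), and was 0.38 without WGP replicate 3.

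The levels of cell type markers also differed between the groups. Of 7 markers of Ly6C-high monocytes, which enter tissues from blood, 4 rose and 1 fell, with a sum of 2482 to 4173 CPM in PBS and 3503 to 3983 CPM in WGP, while all 7 resident macrophage markers fell as given above. The marker that fell was F13a1, at 1335 to 3474 CPM in PBS and 347 to 503 CPM in WGP, which macrophages also express. The other 6 summed to 699 to 1146.5 CPM in PBS and 3156.5 to 3561 CPM in WGP. F13a1 was left out after its values were seen, so this gap is a description only. Of the 8 neutrophil markers 2 (Cxcr2 and Csf3r) rose and none fell, but 6 had a log2 fold change below 0 and the median was -0.75, or -0.15 without PBS replicate 1, with sums of 1294 to 3953 CPM in PBS and 2027 to 2081 CPM in WGP. Ptprc, which all these cells carry, was at 949 to 1043 CPM in PBS and 1536 to 1747 CPM in WGP, and Itgam at 189 to 254 CPM and 379 to 418 CPM. Lyz2 rose by 1.21 on the log2 scale, while Csf1r (-0.31) and Adgre1 (-0.43) did not pass. Without PBS replicate 1, Csf1r (-0.58) and Adgre1 (-0.67) fell. The part of these differences in the higher levels of Ifngr2, Jak2, Ifnar1 and Ifnar2 was not tested.

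**Figure D3:**
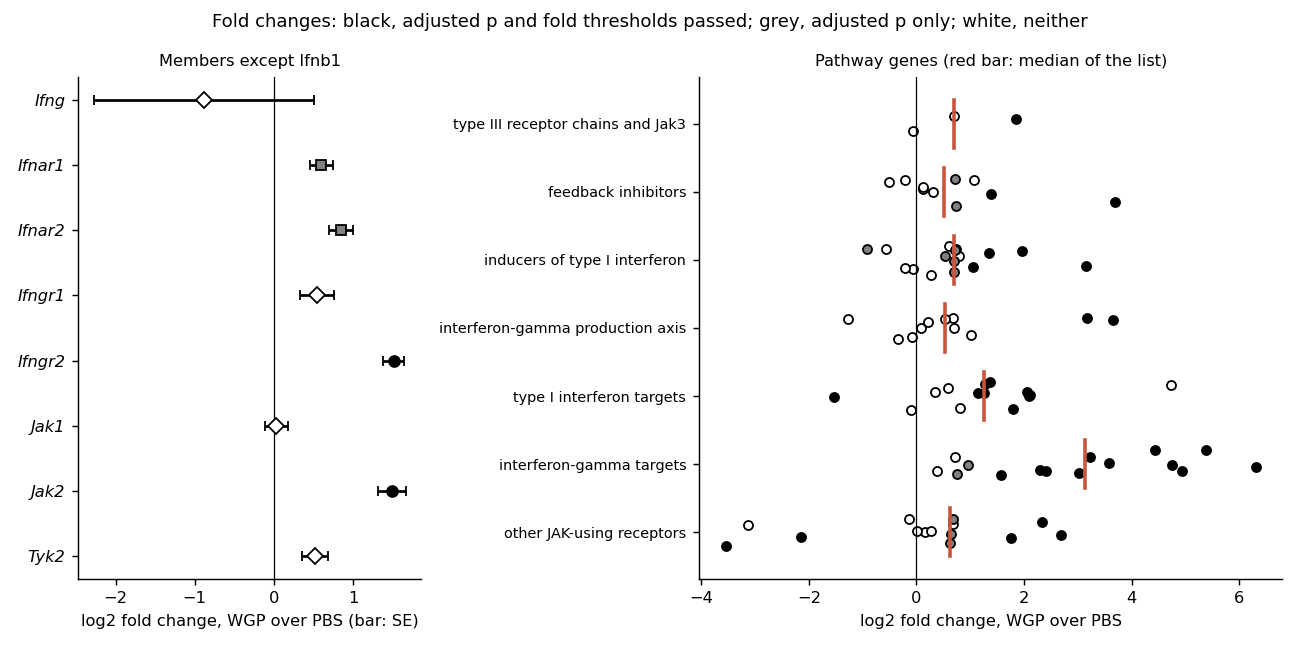
Log2 fold changes of WGP over PBS. Left, the 8 genes other than Ifnb1, with bars of 1 SE. Right, 83 other pathway genes of 7 lists, with a red bar at the median of each list. Black points passed the adjusted p and the fold, grey points the adjusted p only and white points neither. Ifngr2 and Jak2 lay near 1.5, Jak1 near 0, and the bar of Ifng spanned 0. Ifnb1, Nos2 and Il23r are not drawn because all libraries of 1 group were at 0, where the fitted value is no bound.

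Levels can be compared between genes per length, here as CPM per kilobase of the union of a gene's exons. In PBS the order was Ifngr1 (mean 95.2), Jak1 (62.9), Ifnar1 (33.6), Ifnar2 (29.9), Jak2 (24.6), Ifngr2 (23.3), Tyk2 (22.5), Ifnb1 (15.2) and Ifng (4.61). Ifngr1 and Jak1 stood above all others in every PBS library and did not overlap each other. The library ranges of Ifnar1 and Ifnar2 overlapped, as did those of Ifnar2 and Jak2 and those of Jak2, Ifngr2 and Tyk2. Within each library, however, Ifnar1 was above Ifnar2 in all 3 PBS libraries. Ifnb1, at 13.04 to 16.8, lay below all receptor chains and kinases and above the highest Ifng library, at 9.52.

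In WGP the order was Ifngr1 (mean 139), Jak2 (69.3), Ifngr2 (66.6), Jak1 (64.3), Ifnar2 (53.7), Ifnar1 (51.1), Tyk2 (32.3), Ifng (2.50) and Ifnb1 (0). Ifngr1, at 107 to 158, stayed above every other gene in each library. Jak2, Ifngr2 and Jak1 overlapped, and so did Ifnar2 and Ifnar1, although Ifnar2 was above Ifnar1 in each of the 3 WGP libraries. Jak2 and Ifngr2 thus moved from places 5 and 6 to places 2 and 3. The place depends on the length used: with the longest transcript in place of the union of exons, 6 of the 9 genes kept their place in PBS, and in WGP Jak1 (94.8) and Ifnar1 (77.6) came before Jak2 (69.3) and Ifngr2 (67.7).

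**Figure D4:**
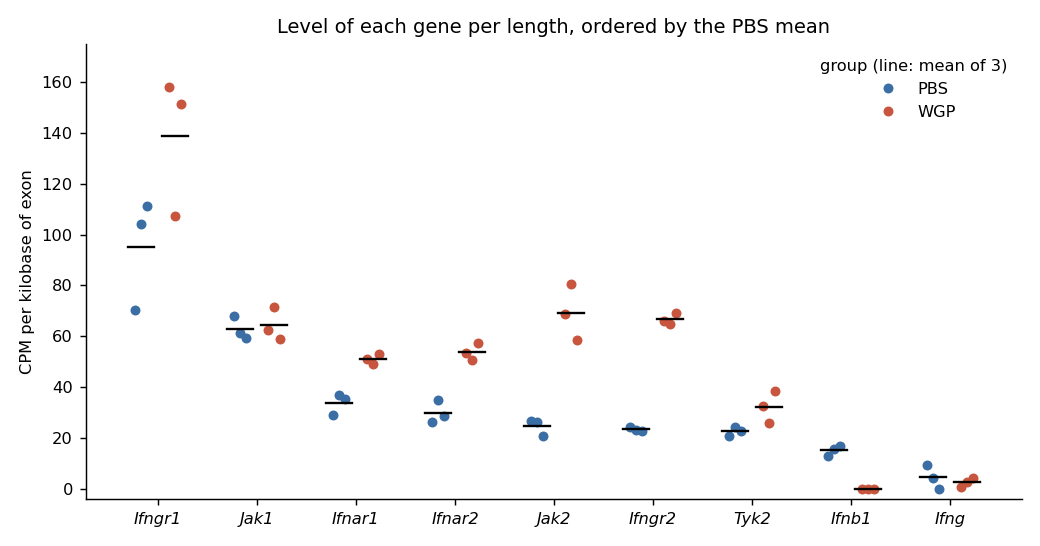
CPM per kilobase of exon (linear axis) of the 9 genes, ordered by their PBS mean, with 1 point per library (PBS blue, WGP red) and a line at the mean of 3. Ifngr1 was highest in both groups, and Jak2 and Ifngr2 went from means of 24.6 and 23.3 in PBS to 69.3 and 66.6 in WGP.

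Within each library the chains were also set against their partners. The ratio of Ifngr1 to Ifngr2 per kilobase was 2.90, 4.51 and 4.91 in PBS and 2.39, 1.66 and 2.20 in WGP. It was lower in every WGP library than in any PBS library, with a mean of 4.11 ± 1.07 against 2.08 ± 0.378 (SD, n = 3 each). In PBS replicate 1 it was nearest to the WGP values.

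The type I receptor was more balanced. Ifnar1 over Ifnar2 was 1.11, 1.06 and 1.23 in PBS and 0.957, 0.968 and 0.929 in WGP, so the groups did not overlap but lay close together. The mean went from 1.13 ± 0.0854 to 0.951 ± 0.0200.

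Among the kinases, Jak1 over Jak2 was 2.54, 2.32 and 2.88 in PBS and 0.906, 0.890 and 1.01 in WGP. The groups lay far apart, with means of 2.58 ± 0.282 and 0.935 ± 0.0653. Jak2 over Tyk2 was 1.10 ± 0.193 in PBS and 2.24 ± 0.793 in WGP. Jak1 over Tyk2 overlapped between the groups, at 2.53 to 3.29 in PBS and 1.54 to 2.75 in WGP. Another gene length would multiply a ratio by the same factor in every library, so it moves the level of a ratio but not the comparison between the groups.

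**Figure D5:**
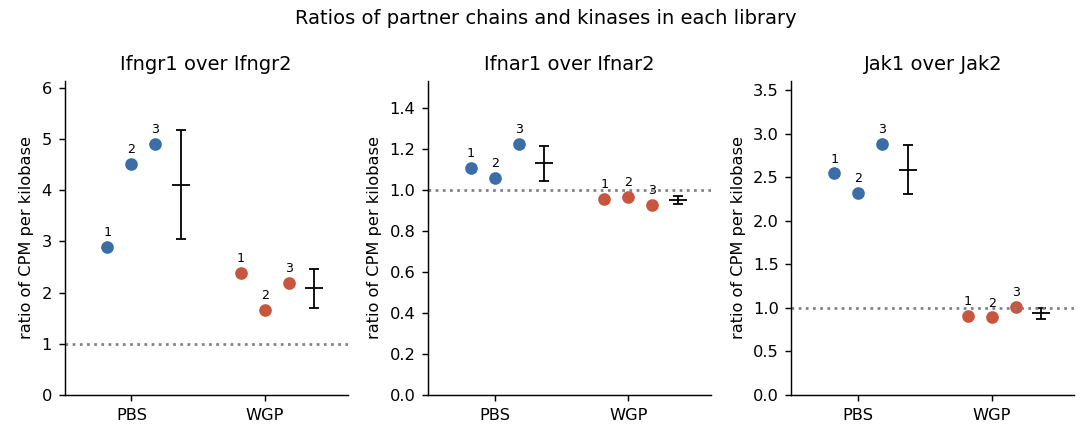
Ratios of CPM per kilobase between partner chains and kinases in each PBS library (blue) and WGP library (red), with the mean and SD and a dotted line at 1. Ifngr1 over Ifngr2 and Jak1 over Jak2 were lower in every WGP library, with means of 4.11 and 2.58 in PBS and 2.08 and 0.935 in WGP.

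The other genes of the pathway were taken from 9 lists written with earlier results of these data known. They hold 108 listed genes, of which 89 were tested: 47 rose and 4 fell, 34 and 3 of these past the fold (edgeR, Benjamini-Hochberg over all genes tested). Over all genes tested, 7.54% rose and 6.81% fell, 4.53% and 4.96% past the fold. The counts of each list below stand against the same shares. The median log2 fold change was 0.72 against -0.05 over all genes. With 3 animals a group these p values set the group difference against the spread between animals of a single experiment.

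Downstream of the receptors, the transducers Stat2 and Stat3 rose. Stat2, which acts below the type I receptor, was at 124, 121 and 120 CPM in PBS and 259, 312 and 319 CPM in WGP, and rose by 1.29 on the log2 scale (SE 0.14, adjusted p = 0.000225, edgeR). Stat3, which many cytokine receptors use, rose by 0.72. Irf9, the DNA-binding partner of STAT2, had a log2 fold change of 0.39 and did not pass. Of type III chains and Jak3, Ifnlr1 rose by 1.85 (adjusted p = 0.0288) from a low level of 2.08 to 5.02 CPM in PBS. This call was lost when PBS replicate 2 (leaving 1.57), PBS replicate 3 (1.88) or WGP replicate 3 (1.46) was left out, and with limma-voom (1.87). With the Y-linked covariate the log2 fold change was 1.38. Jak3 was at 0.71 and did not pass. It passed without PBS replicate 1 (1.05), with DESeq2 (0.70), with limma-voom (0.77) and with counts divided by the most frequent low count (0.73), and was at 0.20 with the Y-linked covariate.

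Of 10 feedback inhibitors 4 rose and none fell, with a median of 0.51. Socs1, which blocks JAK kinases directly, was at 6.06, 8.65 and 0.904 CPM in PBS and 47.2, 95.8 and 58.4 CPM in WGP, a log2 fold change of 3.69 (adjusted p = 0.00354, edgeR), and Ptpn1, a phosphatase of JAK2 and TYK2, rose by 1.39. Ptpn6 (0.74) and Ptprc (0.71), phosphatases of leukocytes, rose below the fold. With the Y-linked covariate, which leaves PBS replicate 1 alone against WGP, Socs1 was at 3.47, Ptpn6 at 0.67 and Stat3 at 0.59.

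Of 16 genes that lead to type I interferon 9 rose and 1, Tlr7, fell, with a median of 0.70. Ikbke, a kinase of interferon regulatory factors, rose by 3.15 (SE 0.15), and Irf7, the factor that drives the interferon-α genes, by 1.96. Tmem173 (STING, 1.35) and the RNA sensor Ifih1 (1.04) rose as well. Ifnb1 itself had no counts in the libraries in which these genes were higher.

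Of 11 genes around IFN-γ production 2 rose, none fell, and the median was 0.52. Il27, a cytokine subunit made by myeloid cells, rose by 3.65 and Il12rb1, a chain of the IL-12 receptor that carries TYK2, by 3.17. Il12rb1 was at 2.39 with the Y-linked covariate. Il18 (0.70) and Stat4 (0.52) did not pass, and Stat4 was at -0.05 with that covariate.

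Targets of both interferons were read from separate lists, although many respond to both. Of 14 tested type I targets 8 rose and 1 fell, with a median of 1.26: Isg15 (2.05), Oas3 (2.11) and Oasl2 (1.79) rose, and Oasl1, a paralog of Oasl2, fell by 1.53 (adjusted p = 0.000688, edgeR). Oasl1 was at 95.7, 158 and 121 CPM in PBS and 39.3, 50.2 and 40.5 CPM in WGP. It is known to limit the translation of Irf7. Of 16 IFN-γ targets 14 rose and none fell, with a median of 3.12 that was the same with Nos2, at 0 in PBS, set to its bound. Cxcl9, a chemokine that draws T cells, had a log2 fold change of 6.31 (SE 0.49), and Gbp5 (5.37), Gbp2 (4.93) and Gbp4 (4.75), guanylate-binding proteins of host defence, rose too. Gbp genes are close paralogs between which the counting could split reads.

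Other receptors that use these kinases did not move as a block. Of 15 tested chains 6 rose and 2 fell, with a median of 0.63. Csf2rb (2.33) and Csf2rb2 (2.68), the β chains through which GM-CSF and IL-3 reach JAK2, rose, as did Il2rg (1.75), the common γ chain that pairs JAK1 with JAK3. Epor, the erythropoietin receptor that signals through JAK2, fell by 3.55 on the log2 scale. Lifr, a chain of the gp130 family that uses JAK1, fell by 2.15 on the log2 scale (adjusted p = 0.000506, edgeR), and by 1.41 with the Y-linked covariate.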

How the data were processed

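RNA was extracted from sorted CD45+CD11b+ pancreatic cells, and libraries were made from 10 ng of RNA and read as single reads of 75 bases. The authors aligned the reads with STAR 2.6 to the mouse genome (GRCm38.p6), counted them per Ensembl gene with HTSeq 0.10.0 and deposited raw counts without normalization. The annotation release, the strand setting and the handling of duplicate reads are not given in the sources used here, so overlapping and antisense genes cannot be separated. IDs were matched to GENCODE vM21.

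The test ran over 14429 protein-coding genes whose RLE-normalized counts added up to 10 or more across the 6 libraries. WGP was compared with PBS by the quasi-likelihood test of edgeR 4.0.16 in R 4.3.3 after TMM normalization, with Benjamini-Hochberg adjustment over all genes tested. A gene passed at an adjusted p of 0.05 or less, and was called if it also moved by 1 or more on the log2 scale in either direction. The SE was derived from the size of the log2 fold change over the root of the F statistic. The script was tested on simulated data. The alternatives were DESeq2 1.42.0, limma-voom (limma 3.58.1), other scalings and filters, all features, thinned counts, counts divided by the most frequent low count (read between 5 and 100), a Y-linked covariate, a replicate block, the longest transcript, and each library left out.

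The genes, lists and motifs were chosen with earlier results of these data known. Named were the 9 genes, from each pathway list of more than 4 genes up to 4 with the smallest p, all genes of smaller lists, the 3 genes most like each ligand, and markers of the sorted, NK, T and plasmacytoid dendritic cells. Tlr7, Nos2, Il23r, Epor, F13a1, Cxcr2 and Csf3r were named after their values were seen. With 3 libraries a group an exact permutation test of 1 gene cannot go below p = 0.1, so none was run. The values of some genes that this rule covers are not reported here.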

Additional observations from a re-analysis of the deposited data

How the results depend on the processing

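Without the fold threshold the calls went from 1369 (653 higher, 716 lower) to 2071 (1088 higher, 983 lower) over all genes and from 3 to 5 among the 9 genes, since Ifnar1 and Ifnar2 passed on the adjusted p. Every other alternative kept these counts and that of the pathway genes (37) within 1.5 times. Leaving out 1 library gave 1146 to 1396 calls over all genes, 3 among the 9 genes in each case and 36 to 39 among the pathway genes. The sign turned for Ifng with limma-voom (1.60), for Jak1 with library totals (-0.074) and the Y-linked covariate (-0.079), for Il10rb with the covariate (0.28) and for Stat4 with the covariate (-0.048). With 1 library left out, Ifng ranged from -1.48 to 0.21 (above 0 without PBS replicate 1), Jak1 from -0.050 (without WGP replicate 2) through -0.0029 (without PBS replicate 3) to 0.092, and Il10rb from -0.21 to 0.016 (above 0 without PBS replicate 2 or 3). None of these values passed, and the cause was not tested. Library totals moved the median of all genes by -0.10 on the log2 scale, which is more than the change of Jak1.

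Replicates with the same number did not deviate together (correlations of 0.0356, -0.0664 and 0.0554), so they share only a number. With the replicate number as a block, 1341 genes were called over all genes, 3 among the 9 genes and 38 among the pathway genes.

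The reads per molecule limit the precision of the ligands: Ifng held 0 to 11.5 units of low counts per library, and the bound for Ifnb1 depends on the floor chosen, while the receptor chains and kinases had at least 3344 reads in every library.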
